A study of Mus musculus with 15 samples.

Results

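Interferon-stimulated genes are the genes that cells switch on after interferon binds its receptor. A list of 37 such mouse genes was followed through 15 testis libraries, and a gene entered where its Entrez ID in the expression table carried the listed symbol. Of the 37 genes, 35 had a row among the 23510 rows of the table, while Mx1 and Mx2 were not analysed here. The libraries came from ICR mice, an outbred stock, in 5 groups of 3. Per the study's methods, pubertal males were injected in the testis and 1 testis of a mouse was taken days later for RNA. The MNC group received the vector control lentivirus, which carried the non-targeting hairpin shNC. The M1, M3 and M5 groups received lentivirus with a mixture of hairpins at several positions against the muscarinic acetylcholine receptors M1, M3 or M5. The Con group is labelled as control, and what, if anything, these testes received is not given in the sources used here. Con and MNC are both of control genotype in the labels. A difference between an injected group and Con can therefore not be told apart from any other way in which the Con mice differed. The libraries hold whole testis, so how many cells carried virus, and which, cannot be read from them.

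Type I interferons signal through the receptor chains Ifnar1 and Ifnar2 and the kinases Jak1 and Tyk2. These kinases activate a complex that holds Stat2 and Irf9 and binds interferon-stimulated response elements in DNA. Type II interferon, encoded by Ifng and made mainly by T and NK cells, signals through Ifngr1 and Ifngr2 and acts at gamma-activated sites. The genes that follow encode sensors of viral nucleic acid, proteins that block viral RNA, and large GTPases that act on the membranes around intracellular pathogens.

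Both kinds of response element can be looked for in the DNA just upstream of the members. RefSeq promoter sequences of GRCm38.p6, the assembly also called mm10, were matched for 27 of the 35 genes. The other 8, which were not searched, were Dhx58, Iigp1, Oas2, Parp14, Parp9, Rtp4, Usp18 and Zbp1. The motif GAAANNGAAA, the core of the response element of type I interferon, was searched on both strands in 250 bases upstream of the start. It was found in 12 of 31 promoters of the members (38.7%) and in 978 of all 32851 promoters (2.98%). The motif TTCNNNGAA, the core of the gamma-activated site, was found in 5 of the 31 (16.1%) and in 2306 of the 32851 (7.02%). The 12 genes with the first motif were Bst2, Gbp2, Gbp3, Ifit1, Ifit3, Igtp, Irgm1, Isg15, Oas1a, Rsad2, Stat2 and Trim30a. The 5 with the other were Bst2, Eif2ak2, Ifit2, Igtp and Oas1a. A match describes the letters only. The 150 bases before the start are shown for 3 GTPase genes and 3 antiviral genes, whose levels are compared below, from 5′ to 3′ on the strand of the gene and with capitals at the matches of either motif. They lie at chr3:142620513-142620662 on the plus strand (Gbp2), chr11:58199406-58199555 on the plus strand (Igtp), chr11:48871421-48871570 on the minus strand (Irgm1), chr19:34640739-34640888 on the plus strand (Ifit1), chr4:156200819-156200968 on the minus strand (Isg15) and chr5:120907526-120907675 on the minus strand (Oas1a).
Gbp2: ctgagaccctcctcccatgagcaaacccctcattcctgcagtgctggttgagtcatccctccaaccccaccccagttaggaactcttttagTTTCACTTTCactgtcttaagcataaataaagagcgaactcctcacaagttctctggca
Igtp: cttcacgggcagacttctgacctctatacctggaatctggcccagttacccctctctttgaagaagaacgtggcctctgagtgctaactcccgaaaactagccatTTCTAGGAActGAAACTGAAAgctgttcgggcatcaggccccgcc
Irgm1: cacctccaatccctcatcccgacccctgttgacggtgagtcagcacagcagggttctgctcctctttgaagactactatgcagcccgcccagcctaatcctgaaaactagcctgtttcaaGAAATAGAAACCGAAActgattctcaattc
Ifit1: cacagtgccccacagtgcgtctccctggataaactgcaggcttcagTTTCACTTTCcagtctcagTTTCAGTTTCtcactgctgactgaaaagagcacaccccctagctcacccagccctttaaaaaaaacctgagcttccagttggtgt
Isg15: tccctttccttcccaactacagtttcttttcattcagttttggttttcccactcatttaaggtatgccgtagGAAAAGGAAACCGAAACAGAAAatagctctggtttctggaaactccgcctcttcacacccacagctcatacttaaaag
Oas1a: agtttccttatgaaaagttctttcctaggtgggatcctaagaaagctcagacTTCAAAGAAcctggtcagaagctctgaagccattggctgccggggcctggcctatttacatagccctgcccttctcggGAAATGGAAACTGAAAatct
Among these 6, the Igtp and Oas1a stretches hold both motifs and the other 4 hold GAAANNGAAA or its reverse complement alone. In Isg15 3 matches overlap, starting 78, 72 and 66 bases before the start, and in Irgm1 and Oas1a 2 matches overlap. The Oas1a stretch runs into the listed span of the gene, which ends at 120907544, so the start used for it lies within that span.

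Expression is given as FPKM, a fragment count corrected for gene length and for the size of the library, so levels of different genes are per length. Summed FPKM ranged from 470243 to 513817 a library, and relative depth, read from the smallest steps of low values, from 0.982 to 1.014. The absolute depth is unknown. The 6 markers of elongating spermatids summed to between 10090 and 29150 FPKM in each library, as in testis. The targeted receptor genes were low in every library, with Chrm1 at 0.06 to 0.17 FPKM, Chrm3 at 0.01 to 0.11 and Chrm5 at 0.19 to 0.43. In the groups aimed at them, Chrm1 was at 0.09 to 0.14 in M1 against 0.10 to 0.11 in MNC, Chrm3 at 0.04 to 0.11 in M3 against 0.01 to 0.05, and Chrm5 at 0.22 to 0.37 in M5 against 0.23 to 0.43. The ranges overlapped in all 3, so these levels do not check the labels. M3 replicate 3 stood apart from its group. Over the 820 genes that limma called in M5 against MNC it lay at 0.83 of the way from the MNC mean to the M5 mean, and the other M3 libraries lay at 0.11 and 0.20. The title of M5 replicate 2 was followed where its description names the column of M5 replicate 1, and the protocol field mentions sperm while titles name testis.

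Part of the members were called higher in each injected group than in Con, and how many differed by group, gene class and library. Differences are of log2(FPKM + 1), and called genes are those whose adjusted p in limma was under 0.05 among the 14514 genes with a mean FPKM of at least 1. Of the 35 members 29 passed that filter. The other 6 were Ifit1, Ifit2, Oas2, Oasl1, Rsad2 and Ifi44. Of the 29, 12 had a Con mean under 1 FPKM and so passed through the injected libraries, and counts over the 29 are no support for a difference. These 12 were Ifih1, Zbp1, Ifit3, Oas1a, Usp18, Parp9, Parp14, Dtx3l, Trim30a, Gbp2, Gbp3 and Igtp. In MNC against Con, 18 of the 29 were called, all higher, where 8.03% of the genes tested were called higher. In M1 against Con 9 were called (10.3% of genes), in M3 against Con 10 (7.01%) and in M5 against Con 21 (9.32%), again all higher. Lower calls were made for none of the 29, and for 12.4%, 23.9%, 15.1% and 12.3% of the genes tested in MNC, M1, M3 and M5. With no filter, over all 35, the counts were 11 in MNC (2.94% of genes), 3 in M1 (4.91%), 4 in M3 (2.25%) and 12 in M5 (5.07%). The 4 comparisons share the 3 Con libraries. In a whole testis, a higher level can be more RNA per cell or more cells of a type, and these cannot be told apart.

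The 35 members had a median log2 difference from Con of 0.76 in MNC, 0.27 in M1, 0.22 in M3 and 0.86 in M5. The medians over all genes tested were -0.10, -0.12, -0.13 and -0.04. All 3 injected libraries lay above all 3 Con libraries for 29 of the 35 in MNC (12.4% of all genes above 0), 14 in M1 (11.5%), 17 in M3 (9.95%) and 30 in M5 (14.8%). For 11 of the 35 (31.4%) all 12 injected libraries lay above all 3 Con libraries, against 907 of 14514 genes tested (6.25%). These were Irf7, Zbp1, Ifit1, Oas1a, Dtx3l, Gbp2, Gbp3, Igtp, Irgm1, Iigp1 and Rtp4. Among them Ifit1 was below the filter, which all of the 14514 genes had passed, so the 2 shares are over unlike sets. Irf7, Zbp1 and the 5 GTPases were the 7 members called in all 4 comparisons, while 4 were called in 3, 5 in 2 and 8 in 1. The other 11 were the 6 below the filter and Irf9, Dhx58, Herc6, Ifi35 and Xaf1, which were tested and not called. With no filter, Iigp1 alone of the 35 was called in all 4, Gbp2 and Igtp in 3, 5 members in 2, 10 in 1 and 17 in none.

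**Figure D1:**
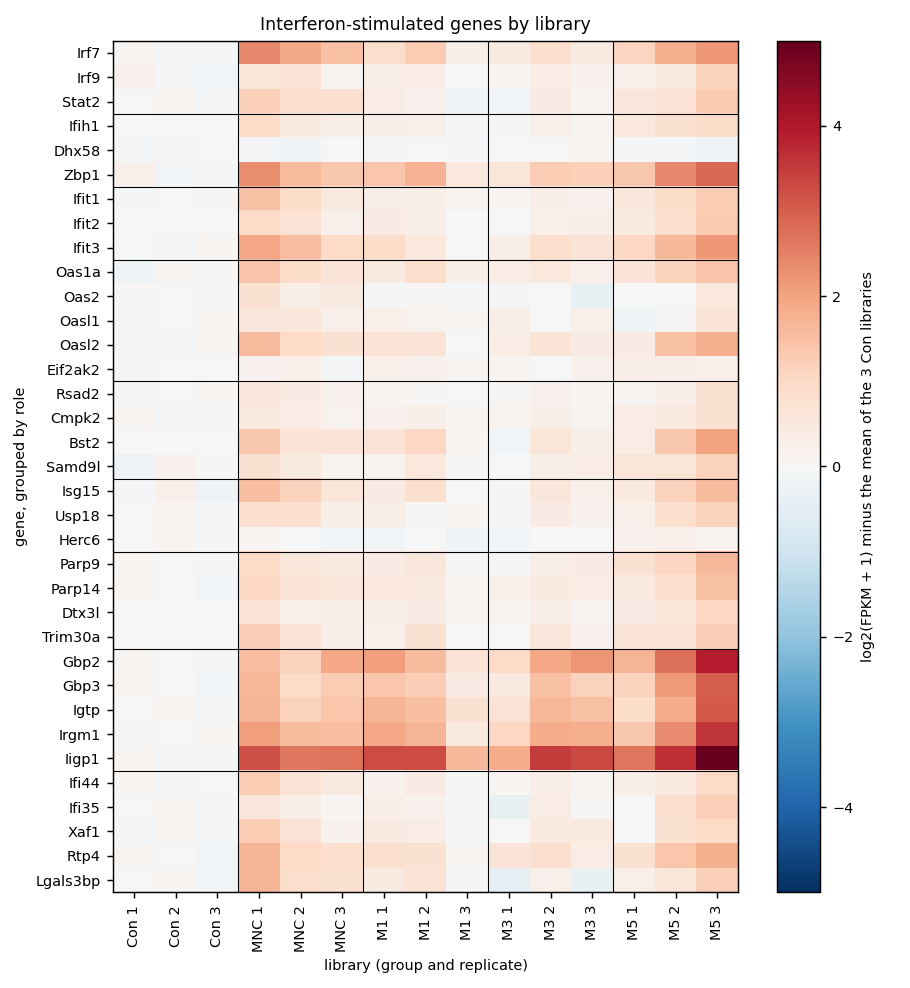
Difference of each member in each library from the mean of the 3 Con libraries, on the log2(FPKM + 1) scale, as colour, with genes in rows by role and the 15 libraries in columns. The 5 GTPase rows from Gbp2 to Iigp1 are above 0 in all 12 injected libraries. They are palest in their groups in M1 replicate 3 and M3 replicate 1, where most other rows are nearly white.

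The calls against Con leaned on single libraries. In MNC against Con the count of 18 fell to 1 without Con replicate 1, 3 without Con replicate 2, 10 without Con replicate 3 and 8 without MNC replicate 2. In M1 against Con the count of 9 became 1, 2 and 2 without Con replicates 1, 2 and 3, 3 without M1 replicate 1, 2 without M1 replicate 2 and 16 without M1 replicate 3. In M3 against Con the count of 10 became 0, 0 and 2 without Con replicates 1, 2 and 3, 5 without M3 replicate 1, and 6 without M3 replicate 2 or without M3 replicate 3. In M5 against Con the count of 21 became 3, 8 and 8 without Con replicates 1, 2 and 3, and 7 without M5 replicate 2. Calls over all genes fell with them, from 4969 to 1259 in M1 against Con without Con replicate 1.

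The GTPases of the Gbp and Irg families, which act on vacuoles that hold pathogens, were the class with the largest differences from Con. All 5 were called higher in all 4 comparisons, and with no filter 5 were called in MNC, 2 in M1, 4 in M3 and 2 in M5. Gbp2, Gbp3 and Igtp are among those that passed the filter through the injected libraries. The class medians were 1.55 in MNC, 1.37 in M1, 1.57 in M3 and 2.43 in M5 (log2 difference). Iigp1, an immunity-related GTPase, had the largest difference of all members in each. Iigp1 was at 1.34, 1.04 and 1.06 FPKM in Con replicates 1 to 3. It was at 19.06, 12.23 and 12.93 FPKM in MNC, 19.82, 19.57 and 5.59 in M1, 6.85, 23.00 and 20.40 in M3, and 12.85, 26.16 and 66.91 in M5. Every injected library was above every Con library, and the lowest of them were M1 replicate 3 and M3 replicate 1.

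The log2 difference of Iigp1 from Con was 2.85 ± 0.17 (SE) in MNC (limma adjusted p = 0.00435), 2.72 ± 0.44 in M1 (limma adjusted p = 0.011), 2.89 ± 0.40 in M3 (limma adjusted p = 0.0254) and 3.78 ± 0.52 in M5 (limma adjusted p = 0.00702). It was called under all 14 alternative fits in MNC, M1 and M5 and under 11 of 14 in M3, and was the steadiest member. Irgm1 was called under 12, 6, 11 and 9 of the 14 in MNC, M1, M3 and M5, Gbp3 under 11, 7, 5 and 8, and Irf7 under 11, 6, 7 and 14. Irgm1, which regulates the other GTPases of its family, was at 1.47 to 1.80 FPKM in Con, 6.45 to 10.1 in MNC, 2.63 to 9.04 in M1, 4.28 to 8.54 in M3 and 5.54 to 30.3 in M5. Gbp2, a guanylate-binding protein, was at 0.70 to 0.97 FPKM in Con, 3.09 to 5.93 in MNC, 1.94 to 6.68 in M1, 2.67 to 7.39 in M3 and 4.89 to 26.7 in M5. Its log2 difference from Con was 1.55 in MNC and 2.79 in M5. Gbp3 and Igtp differed from Con by 1.01 to 2.09 and by 1.29 to 1.95. Irgm1, Gbp2 and Igtp are the genes whose promoter stretches are printed above, and none of them overlapped with Con in any injected group. Genes of these families have close relatives, and how reads shared between copies were counted is not given in the sources used here.

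**Figure D2:**
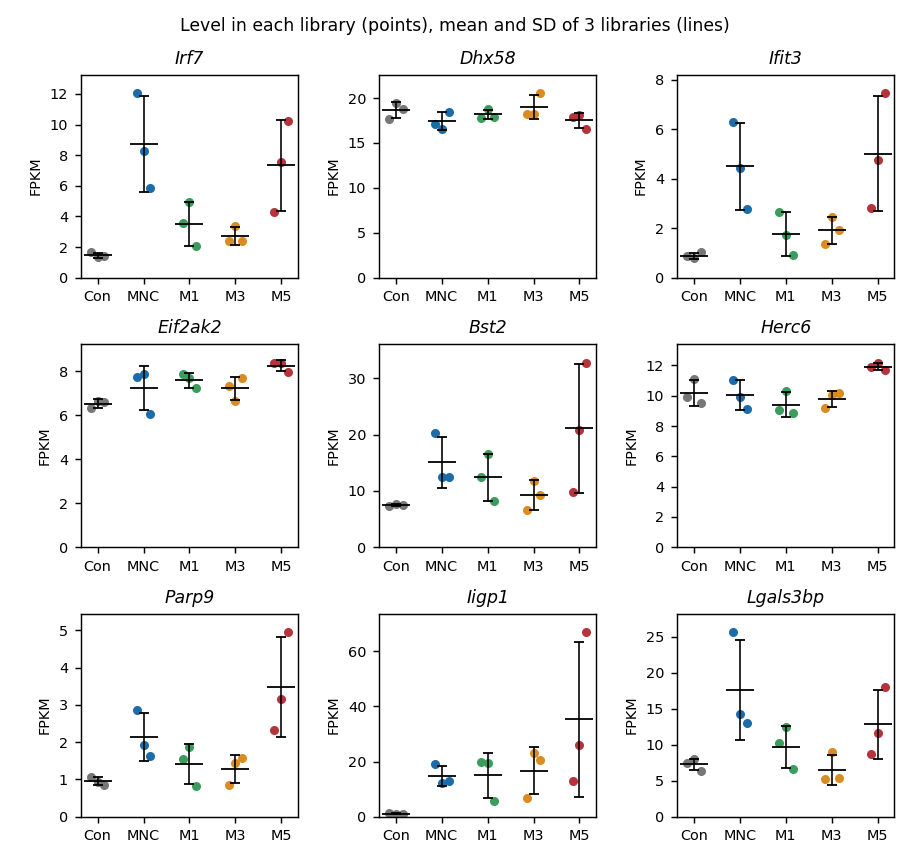
FPKM of 9 members in each library (points) with the mean and SD of the 3 libraries of a group (lines), each axis starting at 0. Iigp1 lies between 5.59 and 66.91 FPKM in the injected libraries and at or below 1.34 in Con, whereas Dhx58 and Herc6 lie close together in all groups.

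Of the transcription factors, Irf7 was called higher in all 4 injected groups, and with no filter in MNC and M5 alone. Irf7 drives the later wave of type I interferon genes. It was at 1.67, 1.36 and 1.39 FPKM in Con, 12.06, 8.28 and 5.87 in MNC, 3.57, 4.94 and 2.05 in M1, 2.40, 3.40 and 2.39 in M3, and 4.27, 7.53 and 10.23 in M5. MNC and M5 had the higher means, though M5 replicate 1 lay below M1 replicate 2, and no injected library reached down into Con. The log2 difference from Con was 1.93 ± 0.23 (SE) in MNC (limma adjusted p = 0.0162), 0.82 ± 0.23 in M1 (limma adjusted p = 0.038), 0.58 ± 0.13 in M3 (limma adjusted p = 0.0322) and 1.69 ± 0.26 in M5 (limma adjusted p = 0.00929). Stat2 was called in MNC and M5, with differences of 0.92 and 0.88, and differed by 0.13 and 0.15 in M1 and M3. Irf9 was called in no comparison, at 2.28 to 3.17 FPKM in Con and 2.71 to 6.91 in the injected libraries.

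The sensors of foreign nucleic acid moved unequally. Dhx58, which encodes the RNA sensor LGP2, had the highest level of this class and was called in none of the 4 comparisons. It was at 17.69, 19.46 and 18.76 FPKM in Con, 17.16, 16.53 and 18.50 in MNC, 17.81, 18.78 and 17.92 in M1, 18.22, 18.18 and 20.56 in M3, and 17.86, 18.08 and 16.56 in M5. All groups overlapped, and the log2 differences from Con were -0.09 ± 0.06 (SE), -0.03 ± 0.05, 0.02 ± 0.07 and -0.09 ± 0.07 in MNC, M1, M3 and M5. The sign in M1 was positive when libraries were centred on their median. Zbp1, which senses Z-form nucleic acid, had a Con mean of 0.497 FPKM and differed by 1.75, 1.21, 1.03 and 2.21. It was called in all 4, and with no filter in MNC and M5 but not in M1 (limma adjusted p = 0.0708) or M3 (limma adjusted p = 0.0519). Ifih1, the RNA sensor MDA5, was called in M5 (0.74) and not in MNC (0.57), M1 (0.17) or M3 (0.15).

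The Ifit proteins bind viral RNA and block its translation. Ifit3 was at 0.86, 0.78 and 1.02 FPKM in Con, 6.28, 4.43 and 2.79 in MNC, 2.66, 1.73 and 0.91 in M1, 1.38, 2.46 and 1.92 in M3, and 2.81, 4.77 and 7.46 in M5. M1 replicate 3 alone of the injected libraries fell within Con. The log2 difference from Con was 1.50 ± 0.23 (SE) in MNC (limma adjusted p = 0.0192), 0.62 ± 0.15 in M3 (limma adjusted p = 0.0358) and 1.60 ± 0.28 in M5 (limma adjusted p = 0.0118). In M1 it was 0.50 ± 0.23 (limma adjusted p = 0.124). Ifit3 and its near copy Ifit3b may share reads. Ifit1 and Ifit2, below the filter, were at 0.18 to 0.27 and 0.41 to 0.47 FPKM in Con and reached 2.35 in MNC (Ifit1) and 2.60 in M5 (Ifit2).

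In the class of 2′-5′ oligoadenylate synthetases, which start the decay of viral RNA, and the kinase PKR, Oasl2 and Oas1a were each called in 3 of 4 comparisons. Oasl2 was called in MNC (1.11), M3 (0.48) and M5 (1.22), and Oas1a in MNC (0.99), M1 (0.56) and M5 (1.07), all log2 differences. Eif2ak2, which encodes PKR, halts translation when it meets double-stranded RNA. It was at 6.31, 6.66 and 6.62 FPKM in Con, 7.74, 7.86 and 6.07 in MNC, 7.88, 7.69 and 7.22 in M1, 7.34, 6.64 and 7.68 in M3, and 8.40, 8.40 and 7.96 in M5. M1 and M5 did not overlap with Con, but the steps were small. The log2 difference was 0.19 ± 0.06 (SE) in M1 (limma adjusted p = 0.0441) and 0.30 ± 0.07 in M5 (limma adjusted p = 0.0348), and 0.12 in both MNC and M3 without a call. Oas2 and Oasl1, below the filter, were between 0.31 and 1.92 FPKM in all libraries. Oas2 was at 0.66 to 0.78 in Con and 1.16 to 1.92 in MNC, the only group wholly above Con. Oasl1 was at 0.45 to 0.63 in Con, with MNC (0.85 to 1.27) and M1 (0.68 to 0.81) above it.

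Among the other antiviral effectors, Bst2, also named tetherin, holds budding virus at the cell surface. Bst2 was at 7.27, 7.65 and 7.48 FPKM in Con, 20.29, 12.45 and 12.40 in MNC, 12.46, 16.53 and 8.13 in M1, 6.61, 11.81 and 9.33 in M3, and 9.82, 20.72 and 32.77 in M5. Only M3 overlapped with Con, through replicate 1. The log2 difference from Con was 0.89 ± 0.18 (SE) in MNC (limma adjusted p = 0.0285). In M5 the larger difference of 1.24 ± 0.38 was not called (limma adjusted p = 0.0592), with a wide spread between its libraries, and the values in M1 and M3 were 0.61 and 0.24. Cmpk2 and Samd9l were called in M5 alone of the 4. Rsad2, below the filter, was at 0.05 to 0.19 FPKM in Con, 0.27 to 0.65 in MNC and 0.20 to 0.89 in M5. It overlapped with Con in M1 and M3.

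Isg15 is a ubiquitin-like protein that is attached to other proteins, Usp18 removes it, and Herc6 is the ligase that attaches it in mice. Isg15 was at 0.98 to 1.62 FPKM in Con and was called in MNC (2.38 to 5.24 FPKM, log2 difference 1.08) and M5 (2.07 to 5.70 FPKM, 1.07). Herc6 was at 9.90, 11.12 and 9.51 FPKM in Con, 11.06, 9.93 and 9.14 in MNC, 9.06, 10.33 and 8.85 in M1, 9.17, 10.03 and 10.16 in M3, and 11.88, 12.19 and 11.69 in M5. Only the M5 libraries lay above all of Con. Its log2 differences were -0.02 ± 0.09 (SE), -0.10 ± 0.08, -0.05 ± 0.08 and 0.21 ± 0.08 in MNC, M1, M3 and M5, none called. The first 3 turned positive under median centring or quantile normalization.

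Parp9, Parp14, Dtx3l and Trim30a act through ADP-ribose or ubiquitin on antiviral signalling. All 4 were called in M5, 2 in MNC and none in M1 or M3. Parp9 was at 1.06, 0.94 and 0.85 FPKM in Con, 2.87, 1.92 and 1.64 in MNC, 1.56, 1.87 and 0.82 in M1, 0.86, 1.43 and 1.57 in M3, and 2.32, 3.15 and 4.95 in M5. MNC and M5 lay wholly above Con, and M1 replicate 3 and M3 replicate 1 lay within or below it. The log2 difference from Con was 0.67 ± 0.16 (SE) in MNC (limma adjusted p = 0.0344) and 1.16 ± 0.21 in M5 (limma adjusted p = 0.0141), and 0.28 and 0.22 in M1 and M3.

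The remaining 5 members are Ifi44, Ifi35, Xaf1, Rtp4 and Lgals3bp. Rtp4 was called in MNC (1.17), M3 (0.61) and M5 (1.31). Lgals3bp, a secreted glycoprotein that binds galectin, was at 7.42, 7.98 and 6.40 FPKM in Con, 25.63, 14.27 and 13.05 in MNC, 10.17, 12.41 and 6.64 in M1, 5.27, 8.92 and 5.36 in M3, and 8.74, 11.69 and 17.98 in M5. MNC and M5 lay above Con, while 2 of the 3 M3 libraries lay below it. The log2 difference from Con was 1.12 ± 0.25 (SE) in MNC (limma adjusted p = 0.0316), 0.34 in M1, -0.17 in M3, the lowest of any member there, and 0.69 ± 0.24 in M5 (limma adjusted p = 0.0818). Ifi35 and Xaf1 were tested and called in no comparison.

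**Figure D3:**
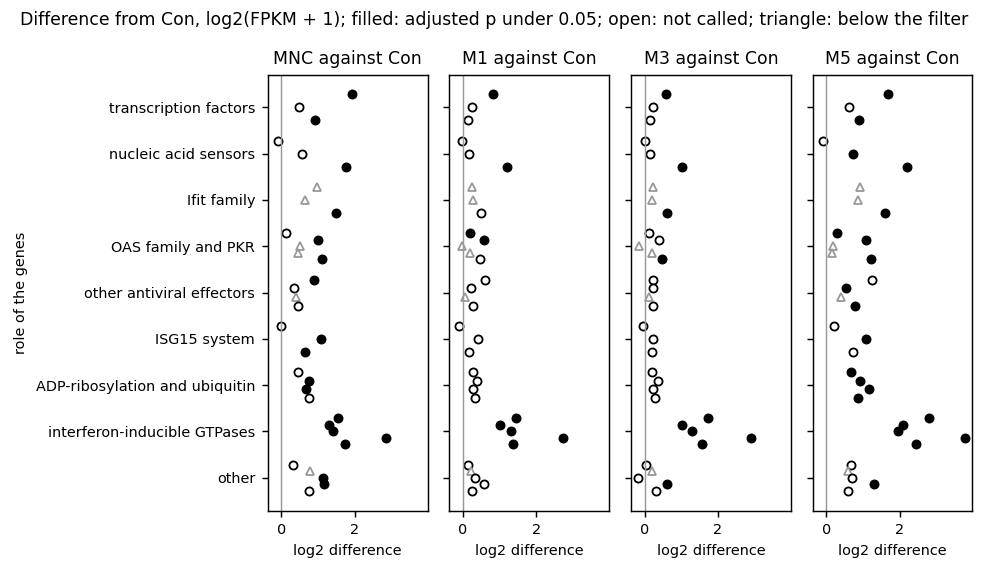
Log2 difference of each member from Con, in columns by comparison and rows by role, with filled points for members called by limma, open points for members not called and triangles for members below the filter. The 5 GTPases are filled in all 4 columns, and the other classes sit nearer 0 in M1 and M3 than in MNC and M5.

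The knockdown groups were next set against MNC, which received the same vector without a targeting hairpin. No member was called in any of the 3 comparisons with limma, in either direction and under every alternative tried. The background was also low in M1 and M3, where 0.0% of genes were called in M1 in either direction and 0.0% higher and 0.00689% lower in M3, and in M5 2.76% were called higher and 2.89% lower. At an unadjusted p under 0.05, 6 members were lower in M1 (5.94% of genes in either direction), 11 were lower in M3 (9.43%) and 1, Herc6, was higher in M5 (24.9%). The median log2 difference from MNC over the 35 members was -0.39 in M1, -0.43 in M3 and 0.13 in M5, beside -0.02, -0.04 and 0.03 over all genes tested. The 3 comparisons share the MNC libraries.

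Of the 35, 33 had a lower mean log2 level in M1 than in MNC, 31 in M3 and 9 in M5. All 3 libraries lay below all 3 of MNC for 12 members in M1 (6.45% of all genes above 0) and 16 in M3 (9.59%), and above them for 2 members, Eif2ak2 and Herc6, in M5 (12.4%). Irf7 differed from MNC by -1.11 ± 0.32 (SE) in M1 (limma adjusted p = 0.819, unadjusted 0.012) and by -1.35 ± 0.24 in M3 (limma adjusted p = 0.518, unadjusted 0.00107). Ifit3 differed by -0.99 ± 0.32 in M1 and -0.88 ± 0.26 in M3, and Lgals3bp by -0.77 ± 0.31 and -1.28 ± 0.29, with the same limma adjusted p-values of 0.819 and 0.518. The library values above show that for these 3 genes neither M1 nor M3 overlapped with MNC.

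The GTPases did not follow these genes. Their class median against MNC was -0.13 in M1 and in M3, where the Ifit class was at -0.71 and -0.74 and the transcription factors at -0.79 and -0.78. In M5 against MNC the GTPase median was 0.80, with all 5 between 0.54 and 1.24, while the Ifit class was at 0.10. Iigp1 differed from MNC by 0.93 ± 0.54 (SE) in M5 (limma adjusted p = 0.34), and M5 replicate 1 lay within the MNC range. For Gbp2 and Gbp3 M5 replicate 1 was within that range too, and for Igtp and Irgm1 it was below it. The GTPase median difference from the Con mean was 1.33, 2.38 and 3.59 in M5 replicates 1 to 3, beside 1.72, 1.17 and 1.52 in MNC. Whether the classes differ in their response was not tested.

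**Figure D4:**
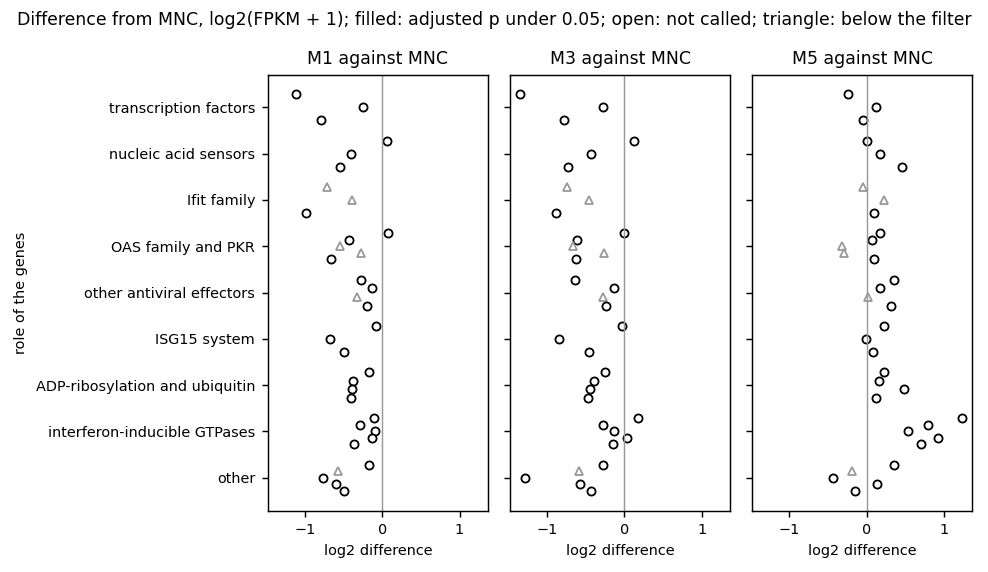
Log2 difference of each member from MNC, in columns by comparison and rows by role, with open points for members not called by limma and triangles for members below the filter. No point is filled, most points lie below 0 in M1 and M3 and the GTPases lie near 0 there and above 0 in M5.

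Libraries of an injected group differed more among themselves in these genes than in others. The median SD of log2 values over the members was 0.33 in MNC, 0.29 in M1, 0.21 in M3 and 0.45 in M5, and 0.11, 0.08, 0.12 and 0.14 over all genes tested. In Con both were near each other at 0.10 and 0.09. In M5, replicate 3 was the highest of its group for 32 of the 35 members and replicate 1 the lowest for 30. In M1, replicate 3 was the lowest for 33, in M3 replicate 1 for 28 and replicate 2 the highest for 27, and in MNC replicate 1 was the highest for 30.

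The median difference from the Con mean over the 35 members was 1.24, 0.71 and 0.46 in MNC replicates 1 to 3, 0.39, 0.50 and 0.05 in M1, 0.11, 0.40 and 0.25 in M3, and 0.47, 0.82 and 1.25 in M5. M1 replicate 3 had 14 members above the highest Con library and M3 replicate 1 had 19, where the other 10 injected libraries had 29 to 34. The 5 GTPases were above Con in every one of the 12. Their median was 0.70 in M1 replicate 3 and 1.02 in M3 replicate 1, while the other 30 members were at 0.03 and 0.06 there. M3 replicate 3, which stood near M5 over the 820 genes given above, was at 0.25 over the members, between the other M3 libraries.

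Messenger RNA of the interferons themselves was scarce. Ifng was listed at 0 in the 3 Con libraries. It was at 0.32, 0.15 and 0.23 FPKM in MNC, 0.19, 0.25 and 0.13 in M1, 0.07, 0.10 and 0.10 in M3, and 0.38, 0.33 and 0.34 in M5, above 0 in all 12 injected libraries. These levels are low, and the gene was below the filter. Ifnb1, which encodes interferon beta, was above 0 in 2 of 15 libraries, at 0.06 FPKM, and Ifna4 was listed at 0 in all 15. The other 7 ligands on the list, of interferon alpha, epsilon, kappa and lambda, were at 0.47 FPKM at most.

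Of 9 receptors and kinases 8 were tested, and none was called higher in any of the 4 comparisons with Con. Lower calls were 2 of the 8 in M1 (23.9% of genes) and 2 in M3 (15.1%). Il10rb, at 4.99 to 6.33 FPKM in Con, was at 7.43, 8.59 and 13.24 in M5. Ifngr2, a chain of the interferon gamma receptor and the highest of them, was at 14.55 to 16.34 FPKM in Con and 13.14 to 19.88 in the injected libraries, and Jak1, Ifngr1 and Il10rb were the next by mean level. Irf3, a factor that is activated without new RNA, was at 21.10 to 24.43 FPKM in Con and 15.48 to 20.71 in the injected libraries. Against MNC none of these receptor, kinase and Irf3 genes was called.

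The next counts stand beside 8.03%, 10.3%, 7.01% and 9.32% of the genes tested called higher in MNC, M1, M3 and M5 and 12.4%, 23.9%, 15.1% and 12.3% lower. Of 12 further sensors and adaptors 7 were tested, and 1, 0, 0 and 1 were called higher in MNC, M1, M3 and M5 and 1, 1, 0 and 0 lower. Of 7 genes listed for limiting the response or degrading nucleic acid 6 were tested, with 1, 0, 0 and 1 called higher and 0, 1, 1 and 0 lower. Isg20, an interferon-induced exonuclease and the highest of them, was at 47.98 to 66.77 FPKM over all libraries. Of 10 inflammatory genes driven by NF-kB 7 were tested, with 2, 0, 1 and 0 called higher and 0, 1, 0 and 0 lower.

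A further 48 interferon-induced genes, 46 of them in the table and 35 tested, were counted against the same shares. In MNC, M1, M3 and M5, 18, 14, 11 and 21 were called higher than Con and 0, 2, 0 and 0 lower. None was called against MNC. Some of the 35, such as Gbp6 and Slfn2, were under 1 FPKM in all Con libraries and passed the filter through the injected ones. These counts are therefore no support for a difference. With no filter, 13, 7, 6 and 14 of the 46 were called higher (2.94%, 4.91%, 2.25% and 5.07% of genes) and 1, 2, 0 and 1 lower. B2m, the light chain of class I MHC, was at 43.69 to 57.92 FPKM in Con and 106.24 to 363.68 in the injected libraries, the lowest of them M3 replicate 3 and the highest MNC replicate 1. Ifitm3, which keeps viruses from fusing with endosomes, was at 12.16 to 13.96 FPKM in Con and 15.21 to 65.58 in the injected libraries. Tdrd7, a germ cell gene that interferon induces elsewhere, was at 96.78 to 107.35 FPKM in Con and 89.33 to 103.07 in the injected libraries.

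Markers of other cells also differed between the groups. The 10 markers of T and NK cells summed to 8.35 to 10.19 FPKM in Con, 16.0 to 26.3 in MNC, 13.07 to 33.77 in M1, 13.16 to 18.94 in M3 and 24.97 to 26.37 in M5. For 8 of the 10 the lowest injected library lay above the highest Con library, beside 6.25% of genes tested. Of the 10, 6 passed the filter. Among these, Cd3g, Nkg7, Gzma and Gzmb were at 0.19 FPKM or less in every Con library and passed through the injected ones. The others that passed, Cd3d and Cd8b1, overlapped with Con. Cd3e, Cd4, Cd8a and Ncr1 were below the filter, so the count and the 6.25% are over unlike sets. The count is therefore no support for a difference. In Con, Ncr1 was listed at 0 in all 3 libraries and Cd3g was at 0.04, 0.04 and 0, and Cd3d, at 6.82 to 7.88, made up most of the sum. The highest sum was in M1 replicate 2, and the highest median of the members in M5 replicate 3. The 10 macrophage markers summed to 307.3 to 337.5 FPKM in Con, 434.0 to 502.4 in MNC, 409.9 to 508.7 in M1, 420.3 to 444.8 in M3 and 482.1 to 626.1 in M5, with none at 0 throughout a group. Aif1, at 203.32 to 257.22 FPKM in Con and 285.62 to 357.65 in the injected libraries, made up most of it. For 2 of the 10 genes all injected libraries lay above Con, beside the same 6.25%. Without Aif1 the other 9 summed to 79.5 to 105.2 in Con, 105.8 to 188.5 in MNC, 77.0 to 164.1 in M1, 78.5 to 103.2 in M3 and 132.9 to 340.5 in M5, so that M1 and M3 overlapped with Con. The 9 macrophage markers that passed the filter are a different set, with Aif1 and without Cd163. Among them 2, 2, 1 and 6 were called higher than Con in MNC, M1, M3 and M5 and 0, 1, 2 and 0 lower. The shares of genes tested were 8.03%, 10.3%, 7.01% and 9.32% higher and 12.4%, 23.9%, 15.1% and 12.3% lower.

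Other lists varied too. The 5 neutrophil markers summed to 0.03 to 0.16 FPKM in Con, 0.20 to 0.51 in MNC and M1, 1.84 to 10.66 in M3 and 1.36 to 10.19 in M5. The 5 red blood cell markers were highest in M5, at 147.5 to 490.7 FPKM, and the 7 Leydig cell markers ranged from 659.5 in M3 replicate 1 to 3168 in M5 replicate 3, the libraries at the ends of their groups for the members. In MNC replicates 1 to 3 the Leydig sums were 2024, 1949 and 1584, the same order as that of the member medians. Among the other injected libraries the Leydig order differed from that of the members. The sums were 1358, 1578 and 1581 in M1 replicates 1 to 3, 1519 and 1768 in M3 replicates 2 and 3, and 1769 and 1521 in M5 replicates 1 and 2. The 6 elongating spermatid markers summed to 10090 to 20040 in Con and 20500 to 29150 in the injected libraries. The 5 epididymis markers were at 3.78 to 35.75 FPKM in Con and 0.76 to 22.24 in M3, and at 0.12 to 0.33 in MNC, M1 and M5. The part of these cell types and of adjoining tissue in the differences of the members was not tested.

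**Figure D5:**
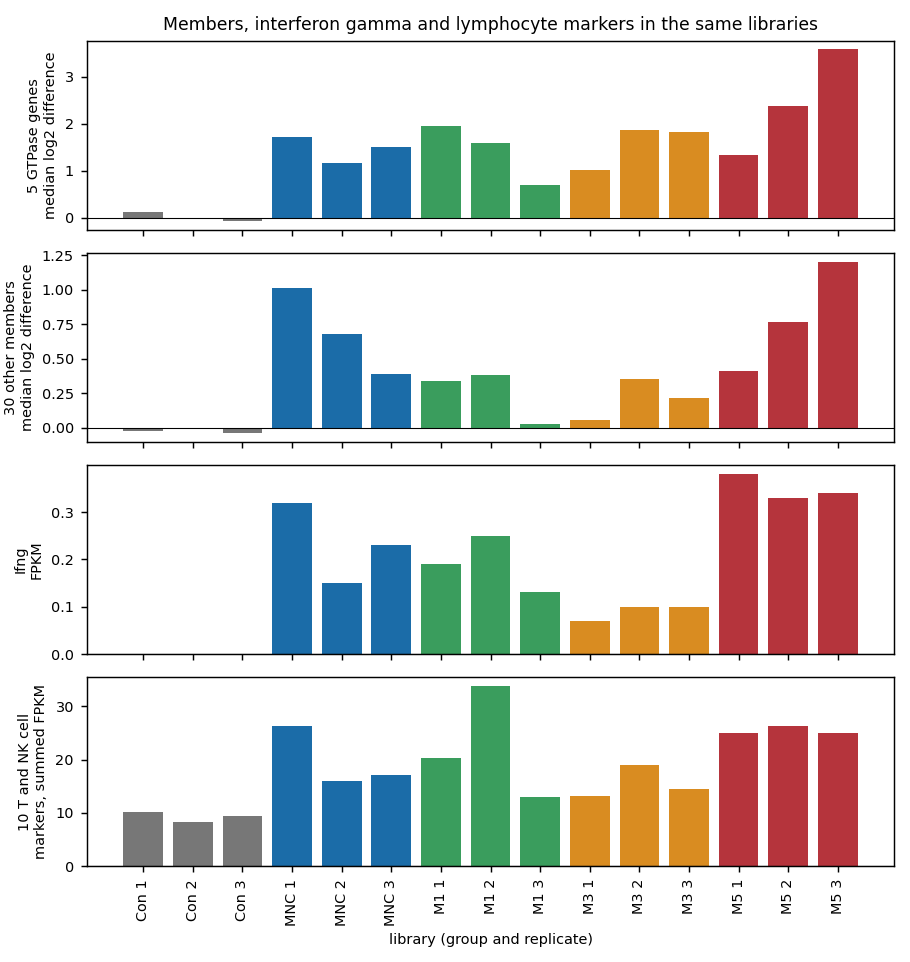
Per library, from top to bottom, the median log2 difference from the Con mean over the 5 GTPases and over the other 30 members, the level of Ifng (FPKM) and the summed level of 10 T and NK cell markers (FPKM). M5 replicate 3 has the highest bars in the upper panels, Ifng is at 0 in the 3 Con libraries and M1 replicate 2 has the highest marker sum, 33.77.

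The genes outside the list whose pattern over the 15 libraries was most like the mean log2 level of the members were Ifitm3 (Pearson r = 0.977), Ctss (0.971), Slfn2 (0.965), C1qb (0.965), Trim21 (0.964), Ccl12 (0.96), Mpeg1 (0.957), Gbp7 (0.957), Ms4a4c (0.956) and Uba7 (0.956). These values describe 15 libraries that share the group structure. Of the 10, 6 are on the list of further interferon-induced genes. C1qb, which encodes a complement chain made by macrophages, was at 11.02 to 12.09 FPKM in Con and 12.80 to 43.71 in the injected libraries, and Ctss, a protease of antigen-presenting cells, was between 7.77 and 56.1 over all.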

How the data were processed

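RNA of 15 mouse testis libraries was measured by sequencing of poly(A) RNA on an Illumina HiSeq instrument. Per the study's methods, SOAPaligner placed reads on reference genes, and the deposited FPKM values were made by the authors from the reads of each gene. The methods name RPKM where the columns say FPKM. The submitters' processing notes name mm10, and the annotation and the strandedness are not given in the sources used here. The table gives 2 decimals, so low levels are coarse, and without counts no count model was run and depth is unknown. All 15 columns were mapped to samples by title. No pair of libraries was identical, and the closest pair, Con replicates 1 and 3, differed in 20787 genes.

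The study's test needs counts, so limma 3.58.1 (lmFit, eBayes with trend, two-sided) in R 4.3.3 was run on log2(FPKM + 1), which understates changes of low genes. Each fit held the 2 groups compared. The filter of a mean FPKM of at least 1 left 14514 genes, with Benjamini-Hochberg adjustment over them and a threshold of 0.05. No label says that replicates came from separate litters or batches, so p-values measure the spread between these libraries. The fit was tested on simulated data. The members and lists were chosen with earlier results of these data known. Members were described in every library where they had the highest mean FPKM of their class or the largest or smallest difference from Con. From other interferon lists up to 4 genes of the highest mean FPKM were named, and from the table the 10 genes most like the members. An item withheld for evaluation is not reported here. Irgm1, Gbp2, Gbp3, Igtp and further members were added by range. Alternatives were a pseudocount of 0.1, a filter of 0.1 or none, median centring, quantile normalization, eBayes without trend, all groups in 1 fit, a block for the replicate number, the threshold used in the study, and leaving out each library. Python 3.11.15, pandas 2.3.3, numpy 2.4.6 and matplotlib 3.10.9 were used.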

Additional observations from a re-analysis of the deposited data

Results flagged for a closer look

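Oas2 and Herc6 had all libraries of 1 injected group above the mean of Con and all libraries of another below it. Oas2, below the filter, was at a mean of 1.48 FPKM in MNC and 1.0 in M5, and at 0.57 in M3, beside 0.73 in Con. Herc6 was at a mean of 11.9 FPKM in M5 and 9.79 in M3, beside 10.2 in Con. These differences between groups were not tested. With 3 libraries a group, no group was large enough for the search for single outlying libraries.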

How the results depend on the processing

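The number of members called against Con kept to higher calls under every alternative and depended on the fit. With the study's threshold (adjusted p of at most 0.001 and a log2 difference of at least 1) it was 0 in each of the 4 comparisons. With no filter it was 11 in MNC, 3 in M1, 4 in M3 and 12 in M5, against 18, 9, 10 and 21. With all 5 groups in 1 fit it was 3 in M1 and 4 in M3. Leaving out single libraries gave 1 to 20 in MNC, 1 to 16 in M1, 0 to 6 in M3 and 3 to 24 in M5, and 0 to 0 in all 3 comparisons with MNC. The cause was not tested, beyond the fewer libraries and genes called over all that these fits have. With the replicate number as a block it was 1 in MNC, 8 in M1, 0 in M3 and 6 in M5. Replicate numbers did not pair the libraries, since the correlation of deviations of same-numbered libraries ran from -0.399 to 0.193 and no comparison had all 3 above 0.1. At most 4 of 6 libraries correlated best with their own number. In M3 against Con the median of the tested members moved from 0.24 to 0.39 with a pseudocount of 0.1, 0.40 with median centring and 0.39 without M3 replicate 1, and in M5 from 0.92 to 1.44 with a pseudocount of 0.1. Of the 9 members given by library, Herc6 and Dhx58 changed sign, neither called. Herc6 reached 0.072 (median centring), 0.074 (quantile normalization), 0.041 (without Con replicate 2 or without MNC replicate 3) in MNC, and lay at -0.084 to 0.041 as single libraries were left out. In M1 it reached 0.021 and 0.022 under the scalings, and in M3 0.106 and 0.096, with -0.093 to 0.01 (without Con replicate 2) as libraries were left out. Dhx58 reached 0.089 and 0.041 in M1 under the scalings, and -0.011 (without Con replicate 1) and -0.031 (without M3 replicate 3) in M3, where leaving out libraries gave -0.031 to 0.054. Of all genes called, 39.3%, 30.1%, 31.7% and 43% were higher in MNC, M1, M3 and M5 than in Con, and 77.5%, 72.7%, 86.1% and 57.6% with median centring, or 48%, 45%, 56.6% and 41.5% with quantile normalization.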

Other observations

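A few further interferon-induced genes, chosen after their values were seen, were high or low in ways that the members were not. Ifi47, an immunity-related GTPase, was at 5.59, 0.89 and 2.02 FPKM in MNC, at 0, 0.74 and 0.12 in Con, and at 0 to 1.17 in the knockdown groups, where the 5 GTPase members were above Con. Ifi204 and Ifi203, DNA-binding proteins of the interferon-inducible HIN-200 family, were at 1.11 to 3.76 and 0.74 to 4.08 FPKM in MNC and at 0.56 and 0.35 or less in the knockdown groups. Tgtp1, another GTPase, was at 0.29 FPKM in MNC replicate 1, within its Con range of 0.24 to 0.40, and at 1.24 to 16.5 in the other 11 injected libraries. Trim25, a ubiquitin ligase of RNA sensing, was at 1.96 to 2.36 FPKM in Con, at 1.43 in M3 replicate 2, and at 0.14 or less in the other 11 injected libraries. Ifi47, Ifi204, Ifi203 and Tgtp1 have close copies in the genome.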
